A study of Mus musculus with 9 samples.

Results

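The Egr and Ier immediate-early genes were followed through the first hour of parathyroid hormone (PTH) treatment in OB-6 cells, an osteoblastic mouse cell line. The genes were taken by name: every probe set annotated with the symbol Egr1, Egr2, Ier2, Ier3 or Ier5 was included, whatever its values. Of these 5 genes 4 had a probe set, Egr1 with 2 and Egr2, Ier2 and Ier3 with 1 each, which gives 5 of the 12488 probe sets of the array. Ier5 was skipped by this rule, since 0 probe sets carry its symbol. Total RNA had been hybridised after 0, 30 and 60 min of PTH, with 3 arrays (replicates a, b and c) at each time and 9 in all. The arrays labelled as 0 min of PTH were the baseline for both later times, and no time-matched untreated cultures were analysed here. The sources used here give neither the dose of PTH nor the culture conditions, and do not say whether the replicates were separate cultures, so p-values measure only the spread between these arrays.

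Immediate-early genes are transcribed within minutes of a stimulus without a need for new protein synthesis, and their messages are mostly short-lived. Egr1 and Egr2 encode zinc finger transcription factors that bind GC-rich DNA and are held in check by the corepressors Nab1 and Nab2. Egr1 is a classic target of serum response factor (SRF) and of the ETS-type ternary complex factors phosphorylated by ERK, and CREB can act on its promoter too. Egr2, also called Krox20, is known for its roles in the hindbrain, in myelinating Schwann cells and in bone formation. Ier2 (Pip92) encodes a small nuclear protein of growth-factor-stimulated cells, and Ier5 encodes a relative of it. Ier3 (IEX-1) encodes a short-lived protein that acts on cell survival and is a target of NF-kappaB. In osteoblasts PTH signals through a receptor coupled to cAMP and protein kinase A, and to protein kinase C and ERK.

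On the tested probe set of each of the 4 measured genes, every 30 min array lay above every 0 min array. This was so for 15.3% of all tested probe sets. The second Egr1 probe set, too dim to be tested, overlapped between these times. The promoters of 2 of the genes, Egr2 and Ier3, are shown, to give the sequence beside the message, and those of Egr1 and Ier2 are not used here. The change of Egr2 did not pass the test threshold at either time. Each stretch is the 250 bases before a transcription start in RefSeq on build GRCm38.p6, plus strand, at chr10:67537619-67537868 for Egr2 and at chr17:35821463-35821712 for Ier3. Capitals mark matches to TGACG, part of the cAMP response element (CRE), and to the CArG box bound by SRF in Egr2, and to the NF-kappaB site in Ier3.
Egr2: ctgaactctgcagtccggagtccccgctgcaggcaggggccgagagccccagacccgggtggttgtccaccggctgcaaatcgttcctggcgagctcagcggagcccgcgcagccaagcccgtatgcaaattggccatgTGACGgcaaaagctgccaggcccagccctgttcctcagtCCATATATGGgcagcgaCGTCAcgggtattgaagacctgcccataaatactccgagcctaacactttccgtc
Ier3: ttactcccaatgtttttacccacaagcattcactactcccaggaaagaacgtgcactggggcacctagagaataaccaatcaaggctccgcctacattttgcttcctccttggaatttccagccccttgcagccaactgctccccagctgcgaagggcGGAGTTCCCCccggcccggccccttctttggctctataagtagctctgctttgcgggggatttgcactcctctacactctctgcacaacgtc

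Windows reaching from 250 bases before to 50 after a start were searched on both strands. RefSeq lists 5 such windows for Egr2, of which 3 overlap each other, and a CArG box lay in 4 of the 5. The 3 overlapping windows share 1 and the same CArG box, so the 4 windows do not hold 4 separate boxes. The one printed is the first of 3 overlapping windows that tied for the most matches to the CArG box, TGACG and TATAAA, so its content is no finding. Its CArG box, CCATATATGG, lies 63 to 72 bases before the start, and TGACG elements lie 51 to 55 and 107 to 111 bases before it. A CArG box occurred in 1.63% of the 32851 windows of all genes and TGACG in 20.8%. The full CRE, TGACGTCA, occurred in 1.79% of all windows, TATAAA in 13.6% and the Egr site GCGNGGGCG in 5.55%, and 0 of the Egr2 windows and of the single Ier3 window held any of these 3. The Ier3 window held 1 match to the NF-kappaB site, 83 to 92 bases before the start on the opposite strand, a motif present in 8.46% of all windows. Of the Egr2 windows 1, not the printed one, held NF-kappaB site matches. The ETS core GGAA, left in lower case above, was present in every Egr2 and Ier3 window but also in 96.0% of all windows. These matches describe letters in a window and not bound sites.

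After 30 min of PTH, Egr1, Ier2 and Ier3 rose, by 6.66-, 4.27- and 2.63-fold on the log2(intensity + 11.8) scale on which all fold changes here were computed. The constant 11.8 is the 20th percentile of all intensities and makes the changes of dim probe sets smaller than a plain ratio does. After 60 min the same 3 genes were still above their start, by 3.96-, 2.92- and 2.09-fold. The Egr2 values were 2.22-fold and 1.65-fold at the 2 times and did not pass the threshold at either. The threshold was a limma p of 0.05 after Benjamini-Hochberg adjustment over all 7884 tested probe sets.

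Egr1 had intensities of 103, 88.0 and 105 on the 0 min arrays (replicates a, b and c), 640, 834 and 707 at 30 min and 583, 309 and 425 at 60 min. All 3 arrays at 30 min lay above all 3 at 60 min, which in turn lay above all 3 at 0 min, and 60 min replicate b was the lowest of the treated arrays. Its mean was 727 ± 98.7 at 30 min, against 98.8 ± 9.38 at 0 min (SD, n = 3 arrays each), and the log2 fold change was 2.74 (95% interval 2.29 to 3.18, SE 0.20, limma adjusted p = 9.61e-05). At 60 min the mean was 439 ± 138, against the same 0 min arrays, with a log2 fold change of 1.99 (1.54 to 2.43, limma adjusted p = 0.00116). The spread at 60 min was the widest of the 3 times, with a coefficient of variation of 31.3%. The log2 fold change there was 2.21 without 60 min replicate b, the array that stood furthest from the rest over all tested probe sets. It was 1.76 without 60 min replicate a, which lay as far above the 60 min mean of Egr1 on the log2 scale as replicate b lay below it.

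Ier2 had intensities of 146, 183 and 149 at 0 min, 608, 831 and 723 at 30 min and 509, 474 and 472 at 60 min. The 3 times did not overlap and stood in the same order as for Egr1, with the 60 min arrays close together at a coefficient of variation of 4.34%. The mean was 720.5 ± 112 at 30 min, against 159 ± 20.5 at 0 min (SD, n = 3 each), a log2 fold change of 2.09 (95% interval 1.78 to 2.40, SE 0.14, limma adjusted p = 4.50e-05). At 60 min it was 485 ± 21.0, a log2 fold change from 0 min of 1.55 (1.24 to 1.86, limma adjusted p = 0.000803).

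Ier3 was far above the filter level before treatment, at 871, 917 and 804 at 0 min, and had 2051, 2691 and 2163 at 30 min and 2212, 1866 and 1453 at 60 min. Every treated array lay above every 0 min array, while the 30 and 60 min arrays overlapped. The mean was 2302 ± 342 at 30 min, against 864 ± 56.6 at 0 min (SD, n = 3 each), a log2 fold change of 1.39 (95% interval 1.05 to 1.74, SE 0.16, limma adjusted p = 0.00207). At 60 min it was 1844 ± 380, a log2 fold change from 0 min of 1.06 (0.72 to 1.41, limma adjusted p = 0.00731).

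Egr2 lay near the filter level before treatment, with 35.6, 48.8 and 73.5 at 0 min, 141, 128 and 114 at 30 min and 80.3, 70.8 and 132 at 60 min. The 30 min arrays all lay above the 0 min arrays, but 60 min replicate b fell below 0 min replicate c. The mean was 128 ± 13.8 at 30 min, against 52.6 ± 19.2 at 0 min (SD, n = 3 each), a ratio of means of 2.43 and a log2 fold change of 1.15 (95% interval 0.58 to 1.73, SE 0.26, limma adjusted p = 0.0696). That call depended on other arrays and on the fit: the adjusted p was 0.0257 without 60 min replicate b, which enters only through the shared spread, 0.0313 when the 0 and 30 min arrays were fitted alone, and 0.292 without 0 min replicate a. At 60 min the mean was 94.3 ± 32.8 and the log2 fold change from 0 min 0.72 (0.15 to 1.29, limma adjusted p = 0.0873), over a range of 0.00397 to 0.268 for the adjusted p in the alternatives.

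The second probe set of Egr1 did not follow the first. It had 8, 13.8 and 7.40 at 0 min, 4.5, 12.5 and 9.20 at 30 min and 19.4, 29.4 and 21.7 at 60 min, so 0 of the 9 arrays reached the intensity of 44.7 (the 40th percentile of all values) that 3 arrays had to exceed for a test. It was left out of the fit for that reason. In a fit without the filter its log2 fold change was -0.08 (SE 0.21) at 30 min and 0.72 (SE 0.21) at 60 min, with limma adjusted p of 0.906 and 0.0782. Its 60 min arrays all lay above its 0 min arrays, at intensities near the added constant.

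**Figure D1:**
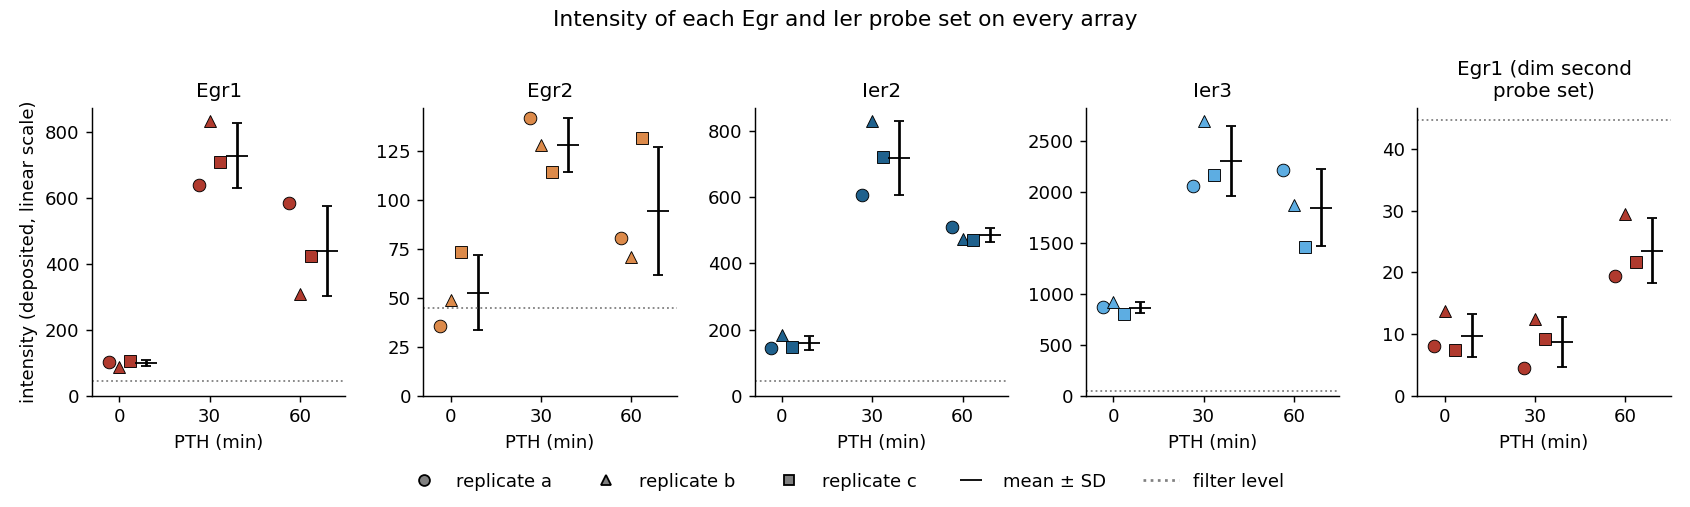
Deposited intensity (linear axis from 0, with its own range in each panel) of each probe set on the 9 arrays, by min of PTH; symbols mark replicates, bars the mean ± SD of 3 arrays, and the dotted line the filter level of 44.7. Egr1 and Ier2 are highest at 30 min and intermediate at 60 min with no overlap, Ier3 and Egr2 overlap between 30 and 60 min, and the second Egr1 probe set stays under 30 on every array.

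Of the 4 tested probe sets, 3 were called higher at 30 min and 0 lower, where 0.482% of all tested probe sets were called higher and 0.457% lower. At 60 min 3 were again called higher and 0 lower, against 4.35% and 8.73% of all tested. All 4 had 30 min arrays wholly above the 0 min arrays, as did 15.3% of all tested probe sets, and 3 had 60 min arrays wholly above them, against 20%. The median log2 fold change of the 4 was 1.74 at 30 min and 1.31 at 60 min, and that of all tested probe sets was 0.05 and 0.03. The F test for any change over the 3 times called 3 of the 4, against 4.64% of all tested. Both comparisons share the 0 min arrays, so they are not independent of each other. The shares for all probe sets depend on the scaling. At 30 min the split was 38 higher and 36 lower as deposited. It was 52 and 92 after quantile normalization, 40 and 61 after 75th percentile scaling and 32 and 65 after cyclic loess. At 60 min the split was 343 and 688 as deposited. After the same 3 scalings, in that order, it was 384 and 622, 507 and 649, and 246 and 639.

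Among all tested probe sets ordered by their log2 fold change at 30 min, Egr1 stood in place 2 of 7884, Ier2 in place 5, Ier3 in place 14 and Egr2 in place 23. At 60 min Egr1 stood in place 3, Ier2 in place 6, Ier3 in place 21 and Egr2 in place 134. These places are descriptions and carry no test.

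**Figure D2:**
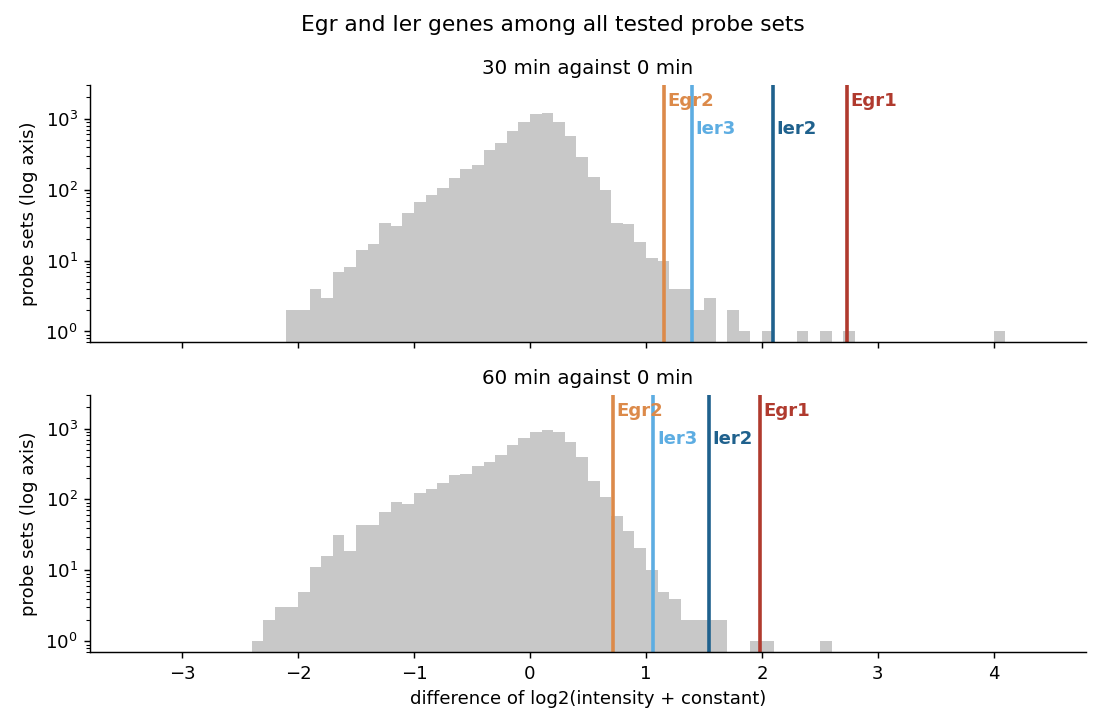
Histogram of the log2 fold changes of all 7884 tested probe sets (grey; the vertical axis counts probe sets on a log scale) at 30 min and at 60 min against 0 min, with a line at the value of each gene. Egr1 and Ier2 lie at 2.74 and 2.09 at 30 min and at 1.99 and 1.55 at 60 min, in the far right tail, and Egr2 at 60 min lies at 0.72, where other probe sets are more frequent.

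Between 30 and 60 min the means of all 4 genes went down on their tested probe sets. Of these 4 differences 0 passed the threshold. An unadjusted p under 0.05 in limma was seen for 2 of the 4, a count with no share of all tested probe sets beside it. Egr1 at 60 min had 0.60 times its 30 min mean, Ier2 0.67 times, Egr2 0.74 times and Ier3 0.80 times. On the log2 scale Egr1 changed by -0.75 (95% interval -1.20 to -0.30, unadjusted p = 0.00373, limma adjusted p = 0.499) and Ier2 by -0.55 (-0.86 to -0.24, unadjusted p = 0.00255, limma adjusted p = 0.418). Both intervals lie below 0, but the adjustment runs over all 7884 probe sets, of which 0.0254%, or 2, were called lower. For Ier3 the value was -0.33 (-0.68 to 0.02, limma adjusted p = 0.557) and for Egr2 -0.43 (-1.01 to 0.14, limma adjusted p = 0.595), so both a fall and no fall lie within their intervals. With array weights estimated by limma, a setting that called 833 probe sets in this comparison, Egr1, Ier2 and Ier3 were called lower.

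On their tested probe sets all 4 genes had their highest mean at 30 min and their lowest at 0 min, an order found in 18.9% of all tested probe sets. For Egr1 and Ier2 it held array by array, with all 60 min arrays below all 30 min arrays and above all 0 min arrays. This was so for 0.342% of all tested probe sets, while 6.49% had 60 min arrays wholly below the 30 min arrays. For Egr2 the neighbouring times 60 and 0 min, and 30 and 60 min, overlapped, and for Ier3 only 30 and 60 min did.

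**Figure D3:**
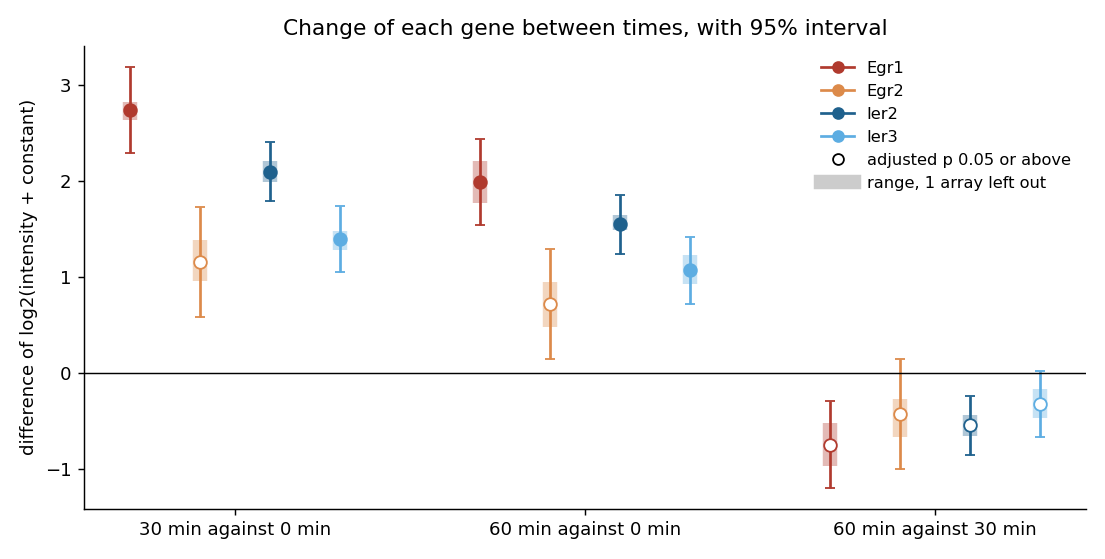
Difference of log2(intensity + 11.8) for each gene in the 3 comparisons of times (points, filled where the limma adjusted p is under 0.05), with its 95% interval (thin bars) and the range when 1 array is left out (wide bars). Egr1, Ier2 and Ier3 are filled for both comparisons with 0 min and open for 60 against 30 min, and Egr2 is open throughout.

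To ask whether the genes rose by unequal amounts, the log2 ratio of each pair of genes was taken within every array and compared between times. There were 6 pairs and 3 comparisons, 18 tests in all. The level of such a ratio has no meaning between probe sets. Its change compares 1 probe set of each gene, and whether these probe sets follow their messages alike was not tested. With 3 arrays against 3, the exact two-sided permutation test cannot give a p under 0.1, which is 0.18 after adjustment over the 18, so no difference could pass and the values are given as sizes with their SE. Ier2 over Ier3 was -1.74, -1.68 and -1.57 at 30 min, against -2.48, -2.26 and -2.35 at 0 min. The arrays of these 2 times did not overlap, and the mean difference was 0.70 (SE 0.08). Egr1 over Ier3 was -1.66, -1.68 and -1.60 at 30 min, against -2.94, -3.22 and -2.80 at 0 min, a difference of 1.34 (SE 0.12). Egr1 over Ier2 differed by 0.64 (SE 0.17) and Egr1 over Egr2 by 1.58 (SE 0.29), again with no overlap between 30 and 0 min.

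Egr2 over Ier2 differed by -0.94 (SE 0.32) between 30 and 0 min, with no overlap. Egr2 over Ier3 differed by -0.24 (SE 0.32) with overlap, and by 0.03 without 0 min replicate c, so for this pair neither an equal nor a moderately unequal rise lies beyond the spread. At 60 against 0 min the differences had the same signs, and those of Egr1 over Ier2 (0.44, SE 0.28) and of Egr2 over Ier3 overlapped. The value for Egr1 over Ier2 was 0.25 when 60 min replicate a was left out and 0.27 when 0 min replicate b was. From 30 to 60 min 1 of the 6 pairs did not overlap, Egr1 over Ier3, with a difference of -0.42 (SE 0.25), which was -0.18 without 60 min replicate b, the array furthest from the rest.

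**Figure D4:**
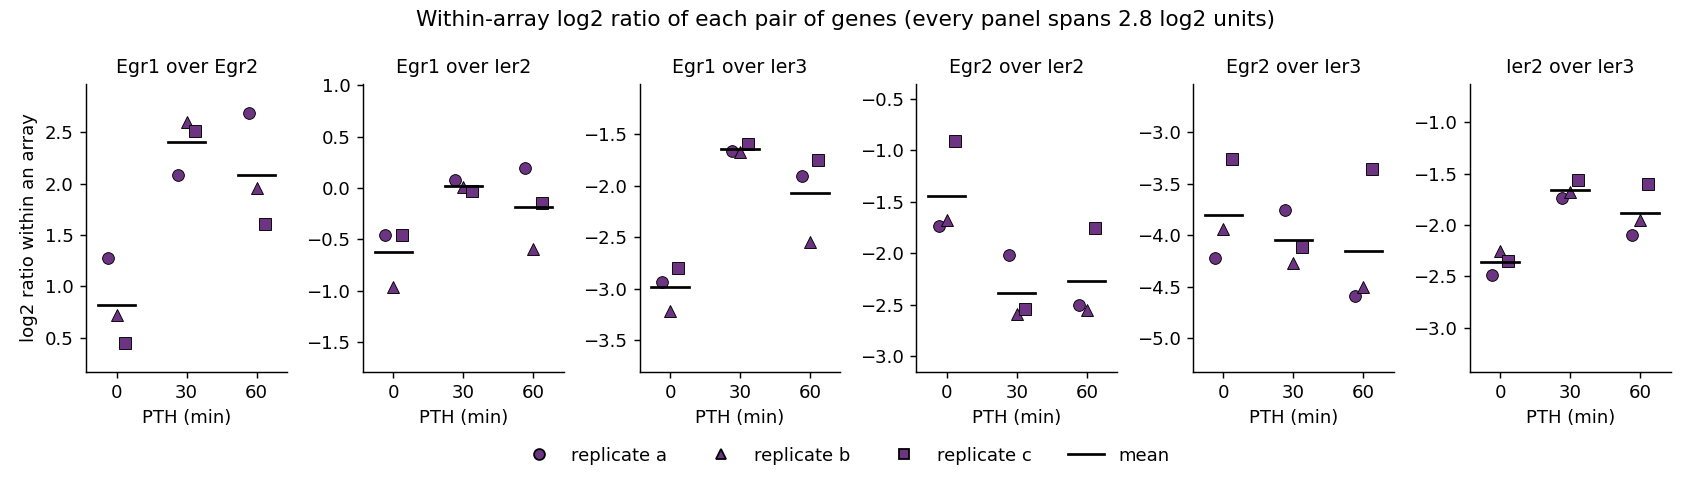
Log2 ratio of 2 genes within each array for the 6 pairs, by min of PTH; symbols mark replicates and lines the means, and every panel spans the same length of the log2 axis. At 30 min Egr1 over Egr2, Egr1 over Ier2, Egr1 over Ier3 and Ier2 over Ier3 are higher than at 0 min on every array, Egr2 over Ier2 is lower, and Egr2 over Ier3 overlaps.

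Across the 9 arrays the log2 values of Egr1, Ier2 and Ier3 had Pearson correlations of 0.98 (Egr1 and Ier2), 0.96 (Egr1 and Ier3) and 0.97 (Ier2 and Ier3), and those of Egr2 with the 3 were 0.84, 0.82 and 0.72. These describe mostly the difference between times, since the points are 3 groups of arrays. After each time's mean was taken away, the correlations were 0.30 (Egr1 and Ier2), 0.44 (Egr1 and Ier3) and 0.64 (Ier2 and Ier3), and Egr2 stood at 0.11, -0.16 and -0.59 with Egr1, Ier2 and Ier3. Among the 30 min arrays, replicate b was the highest and replicate a the lowest for Egr1, Ier2 and Ier3, whereas replicate a was the highest for Egr2. Deviations of an array that many probe sets share enter these values, and their part was not tested.

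The genes most like each called member were those with the highest correlation of log2 values over the 9 arrays. For Egr1 they were Phlda1 (0.98), which encodes a pleckstrin homology domain protein, Ccn2 (0.97) and Ccn1 (0.96), which encode secreted matricellular proteins. For Ier2 they were Ppif (0.97), the mitochondrial cyclophilin, Dusp6 (0.97), a phosphatase that acts on ERK, and Hspa1b (0.97), an inducible heat shock protein. For Ier3 they were Junb (0.96), an AP-1 subunit, Ei24 (0.96) and again Dusp6 (0.95). A high correlation over the 9 arrays did not mean a change of like size, or a like course from 30 to 60 min. Ppif had log2 fold changes of 0.50 at 30 min and 0.48 at 60 min and Hspa1b of 0.44 and 0.29, against 2.09 and 1.55 for Ier2. Ppif did not pass the threshold at 30 min (limma adjusted p = 0.0826), and Hspa1b passed at neither time (0.0678 and 0.0728). Mean intensities at 30 and 60 min were 136 and 134 for Ppif and 517 and 504 for Dusp6, against 720.5 and 485 for Ier2. Ei24 had log2 fold changes of 0.28 at both times and passed at neither (limma adjusted p = 0.196 and 0.0853).

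Other immediate-early genes were read from 2 lists that left the members out. Like the lists further below, they were chosen with earlier results of these data known. Their counts and medians therefore describe the listed genes and do not test a class of genes. Over all tested probe sets 0.482% were called higher and 0.457% lower at 30 min, and 4.35% and 8.73% at 60 min. The list counts at the 2 times therefore stand beside unlike shares. Of 24 tested genes in the first, mostly of transcription factors but with Btg2 and Zfp36 among them, 7 were called higher and 0 lower at 30 min, led by Fos (4.05), Nr4a1 (2.55) and Junb (1.56), with a list median of 0.45 against 0.05 for all genes. At 60 min 10 were called higher, led by Nr4a1 (2.52), Fos (2.06) and Bhlhe40 (1.67), and 1 lower, Klf9 (-0.44), with a median of 0.45 against 0.04. Of 21 other response genes 8 were called higher and 0 lower at 30 min, led by Ccn2 (2.30), Dusp1 (1.81) and Phlda1 (1.53), and 12 higher and 0 lower at 60 min, led by Errfi1 (1.5045), Ccn2 (1.22) and Dusp6 (1.03). The 2 probe sets called lower in the comparison of 60 with 30 min were those of Fos, at -1.99 (limma adjusted p = 0.00475), and of Dusp1, at -0.88 (0.0180). Nr4a1 stood at -0.03 in it. The corresponding values of Egr1 and Ier2, -0.75 and -0.55, lie between those of Fos and Nr4a1, and the differences between these genes were not tested.

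The genes of factors and kinases known to act upstream of Egr1 were read at the message level. Over all tested probe sets 0.482% were called higher and 0.457% lower at 30 min, and 4.35% and 8.73% at 60 min. Few or no calls in lists this small are near those shares. Counts at an unadjusted p under 0.05 have no such share beside them, here and below. Of 4 tested genes for SRF and its partners 0 were called by limma at either time, with 1 at an unadjusted p under 0.05 at 30 min and 0 at 60 min, and the brightest were Fhl2 (0.54 and 0.19) and Mrtfa (-0.22 and 0.05). Of 15 tested genes of the cAMP and CREB arm 0 were called, with 2 and 5 at an unadjusted p under 0.05 at the 2 times and medians of -0.05 and -0.09, the brightest being Gnas, the stimulatory G protein (-0.05 and 0.33), and Prkar1a, a regulatory subunit of protein kinase A (-0.02 and -0.04). Of 9 tested ERK pathway genes 0 were called, with 1 at an unadjusted p under 0.05 at each time and Mapkapk2 at 0.19 and 0.35 and Shc1 at -0.29 and 0.05. The corepressor of Egr proteins Nab2 had -0.19 at 30 min and 0.37 at 60 min (limma adjusted p = 0.0741), and Nab1 had -0.60 and -0.85 (0.0671). Of the 4 tested genes in that list, which also holds Sp1, 0 were called at 30 min (1 at an unadjusted p under 0.05) and 1 at 60 min, Sp3, lower at -1.10 (limma adjusted p = 0.0378), which encodes a factor of GC-rich promoters.

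The counts of the next 3 lists at 60 min stand beside 4.35% of all tested probe sets called higher and 8.73% called lower, and a single call in a list of this size is near those shares. Of 18 tested genes described as Egr1 targets 0 were called at 30 min (3 at an unadjusted p under 0.05) and 1 at 60 min, the metalloproteinase inhibitor gene Timp1 at 0.47 (limma adjusted p = 0.0360). The median of the list was 0.06 at 30 min and 0.29 at 60 min, against 0.05 and 0.04 for all genes. Of 12 tested NF-kappaB feedback genes, chosen because Ier3 is an NF-kappaB target, 0 were called at 30 min (3 at an unadjusted p under 0.05). At 60 min 4 were called higher, among them Nfkbib (0.54), Nfkbia (0.48) and Cxcl1 (0.47), and 1 lower, Birc2 (-1.06, and -0.17 on a second probe set that did not pass). Ier3 itself was called at 30 min, when Nfkbia stood at 0.43 (limma adjusted p = 0.102, and 0.21 on a second probe set) and Cxcl1 at 0.47 (0.0535). The difference between Ier3 and these genes was not tested.

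Heat shock genes, which encode chaperones, were read as well, since Hspa1b was among the genes most like Ier2. Of 12 tested 0 were called at 30 min (4 at an unadjusted p under 0.05), with a median of 0.01, and at 60 min 1 was called higher, Dnajb1 (0.59), and 2 lower, Hsp90aa1 (-1.57) and Hspa4 (-1.06). The other 3 tested probe sets of Hspa4 had -0.06, -0.51 and -0.58 and did not pass. Whether the immediate-early genes would move in untreated cultures over the same time cannot be told apart from an effect of PTH with these arrays.

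The labelled cell type was checked by marker levels. Of 7 osteoblast markers on the array 6 passed the filter, Alpl, Col1a1, Col1a2, Sparc, Ibsp and Omd, while the PTH receptor gene Pth1r did not pass. Sums of intensity here run over all markers of a list on the array, passed or not. The osteoblast sum was 14001 to 15037 at 30 min and 15028 to 17538 at 60 min, against 14587 to 15753 at 0 min. Of 9 markers of haematopoietic cells and osteoclasts 5 passed, Cd68, Cd14, Csf1r, Ctsk and Acp5, while Ptprc, Itgam, Lyz2 and Calcr did not. At 0 min Cd14 had a mean of 976 and Ctsk of 599. The sum of this list was 1946 to 2092 at 30 min and 1829 to 2271 at 60 min, against 1794 to 2012 at 0 min. Of 5 adipocyte markers 2 passed, of 7 skeletal muscle markers 3, of 4 chondrocyte markers 0 and of 6 endothelial markers 0. At 60 min the osteoblast marker Col1a1 (0.56) and the muscle marker Ckm (0.86) were called higher. The osteoblast marker Omd was called lower, with a mean of 545 against 2083 at 0 min (log2 fold change -1.93, limma adjusted p = 0.0145). The muscle sum was 352 to 386 at 30 min and 295 to 427 at 60 min, against 215 to 320 at 0 min, and the endothelial sum 50.4 to 86.5 and 90.2 to 110.7, against 45.2 to 55.6. The endothelial sum comes from 6 markers that did not pass the filter, and values so dim give no reliable change. The adipocyte sum lay between 164 and 197 on all arrays and the chondrocyte sum between 35 and 87.8. The part of other cells in the values of the Egr and Ier genes was not tested, and in RNA of whole cultures a change in fewer cells and a change of RNA per cell cannot be told apart. The median correlation of an array with the other 8 was 0.938 for 60 min replicate b and 0.954 to 0.967 for the rest.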

How the data were processed

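Gene expression was read from 1 deposited table of linear intensities, with 12488 probe sets and 9 arrays, whose summary method is not given in the sources used here. Each array of the deposited intensities had a mean of 250.1 to 250.2 once 2% of probe sets were taken off each end, so they were used as scaled. Gene symbols came from the platform annotation (10833 probe sets with 1 symbol). Intensities were converted to log2(intensity + 11.8). The 66 control probe sets and those with fewer than 3 of 9 arrays above 44.7 were left out, leaving 7884. A mean per time was fitted with limma 3.58.1 in R 4.3.3 (lmFit, eBayes with trend, 6 residual degrees of freedom, prior 4.68) and adjusted by Benjamini-Hochberg over all 7884. A gene with several probe sets is represented by the brightest. The fit was tested on simulated data. Genes and lists were chosen with earlier results of these data known. From each list the 3 largest called changes, or the 2 brightest members where 0 were called, are named, with a few more chosen after their values were seen. Alternatives were other constants, filters, scalings, variance models and weights, fewer samples, a replicate block and leaving out each array. The number of arrays limits the precision.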

Additional observations from a re-analysis of the deposited data

How the results depend on the processing

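The calls of Egr1, Ier2 and Ier3 at 30 and 60 min against 0 min held in all 20 alternatives run for each, 9 of which left out 1 array. The log2 fold changes at 30 min ranged from 2.38 to 2.86 for Egr1, 1.88 to 2.21 for Ier2 and 1.28 to 1.47 for Ier3, and at 60 min from 1.68 to 2.21, 1.36 to 1.64 and 0.86 to 1.22. Egr2 at 30 min passed the threshold after quantile normalization (1.14), with array weights (1.095), with the replicate letter as a block (the replicate block, 1.15), with only the 2 times compared (1.15) and without 60 min replicate b, over 0.95 to 1.38 with 1 array left out; at 60 min it passed with array weights only (1.08). With array weights 3 genes were also called lower at 60 against 30 min, Egr1 (-0.67), Ier2 (-0.58) and Ier3 (-0.47), against 0 in the fit as reported. The cause was not tested. The filter on all 9 arrays removed Egr2 (1 of its arrays lies below), so it has 19 alternatives. Differences between genes moved by less than 1 pooled SD in the alternatives run, but those that are small beside their SE shifted widely with 1 array left out: Egr2 over Ier3 at 30 min ranged from -0.45 to 0.03, Egr1 over Ier2 at 60 min from 0.25 to 0.65 and Egr1 over Ier3 at 60 against 30 min from -0.58 to -0.18. The replicate letters were not taken as pairs: same-letter deviations correlated between -0.128 and 0.304, and not every array correlated best with its own letter. Counts over all probe sets depended on single arrays and on weights. As reported they were 74, 1031 and 2 for 30 against 0, 60 against 0 and 60 against 30 min and 366 in the F test. They ranged from 16 (without 0 min replicate a) to 2381 (array weights), from 69 to 2499 and from 18 to 3360 at the same 2 settings, and from 0 (without 30 min replicate b) to 833 (array weights) for 60 against 30 min. Intensities under 44.7, such as those of the second Egr1 probe set, give no reliable change.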

Other observations

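The order seen for Egr1 and Ier2, with every 30 min array above every 60 min array and those above every 0 min array, was found in 27 of the 7884 tested probe sets. The genes named here were picked from them after their values were seen. Besides Egr1 and Ier2 they include Fos, Dusp1, Ccn1, Ccn2, Phlda1, Btg2, an antiproliferative gene, and Zfp36, which encodes a protein that destabilises AU-rich messages. Zfp36 had log2 fold changes of 0.60 at 30 min and 0.21 at 60 min, and neither passed the threshold (limma adjusted p = 0.0826 and 0.356). Btg2 rose by 0.86 at 30 min and 0.40 at 60 min (limma adjusted p = 0.00239 and 0.0298).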
